A study of Homo sapiens with 6 samples.

Results

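The genes described here are 38 genes of mitosis, chosen by name: kinases that drive entry into mitosis, regulators of CDK1, spindle and centriole proteins, the chromosomal passenger complex, cytokinesis factors, and the proteins that start anaphase and end mitosis. Kinetochore, kinesin, cyclin and condensin genes were left out of the set. The set, and the other gene lists set beside it below, were chosen with earlier results of these data known. All 38 were found among the 26364 genes of the table. RNA-seq was done on total RNA of Calu3, an established human line from an adenocarcinoma of the lung. The siBRD8 group (3 libraries) received siRNA against BRD8, a bromodomain protein of the TIP60 histone acetyltransferase, and the siNC group (3 libraries) received a negative control siRNA, each at 20 nmol with the same transfection reagent. The study names a single siRNA reagent against BRD8, the time after transfection was not given in the sources used here, and the labels do not say whether libraries came from separate cultures, so the spread that the p-values measure may be technical.

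Mitosis is driven by CDK1 bound to cyclin B. CDC25 phosphatases switch CDK1 on, Polo-like and Aurora kinases build the spindle, the anaphase-promoting complex (APC/C) with CDC20 then releases the sister chromatids, and the central spindle places the cleavage furrow. Most of these genes are transcribed in a wave in G2 and mitosis, which in other human cell lines is set by the DREAM and MMB complexes and FOXM1. Their promoters often hold the cell cycle genes homology region (CHR) beside CCAAT boxes, the sites of NF-Y. In a dividing cell line the level of these RNAs therefore follows the share of cells in G2 and mitosis as well as the level in each cell, and in bulk RNA fewer such cells and less RNA per cell cannot be told apart.

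RefSeq promoters (GRCh38.p14, 250 bases before to 50 after the first listed start) were at hand for 32 of the 38 genes; AURKA, BIRC5, PBK, RACGAP1, TPX2 and UBE2C had none. The CHR letters TTTGAA, searched on both strands, stood in 23 of the 32 windows (71.9%), against 15.4% of all 27305 promoters. CCAAT, also on both strands, stood in 25 (78.1%), against 35.7% of all. Both stood together in 20 (62.5%), against 6.08% of all, and a CHR match lay within 50 bases before the start in 11 (34.4%), against 2.31%. The E2F letters TTTGGCGC or TTTCGCGC were in 3 (9.38%), against 1.18%. With any listed start of a gene, 24 of 32 held the CHR letters (75%), against 18.2% of all. These are matches of letters, not shown binding sites, and TTTGAA and CCAAT can overlap, as in CDCA8. Shown are 3 genes that fell and hold both motifs (CDCA8, PRC1, PLK1) and the 3 genes that did not pass the test (CKS2, CKS1B, CDC25B). Also shown is CDC25C, which fell. It holds neither motif in the window of its first listed start, which does not exclude a match at another start. The 150 bases before the first listed start of each gene are printed, with CHR and CCAAT matches, on either strand, in capitals. They lie on GRCh38.p14 at CDCA8 chr1:37692366-37692515 (plus strand), PRC1 chr15:90994536-90994685 (minus strand), PLK1 chr16:23678739-23678888 (plus strand), CDC25C chr5:138338356-138338505 (minus strand), CKS2 chr9:89311045-89311194 (plus strand), CKS1B chr1:154974531-154974680 (plus strand) and CDC25B chr20:3786801-3786950 (plus strand).
CDCA8: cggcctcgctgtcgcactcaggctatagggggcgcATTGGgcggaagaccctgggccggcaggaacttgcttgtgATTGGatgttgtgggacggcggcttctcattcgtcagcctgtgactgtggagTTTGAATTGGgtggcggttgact
PRC1: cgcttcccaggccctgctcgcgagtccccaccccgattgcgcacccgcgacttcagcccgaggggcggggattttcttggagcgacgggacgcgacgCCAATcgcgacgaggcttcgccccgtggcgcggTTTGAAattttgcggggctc
PLK1: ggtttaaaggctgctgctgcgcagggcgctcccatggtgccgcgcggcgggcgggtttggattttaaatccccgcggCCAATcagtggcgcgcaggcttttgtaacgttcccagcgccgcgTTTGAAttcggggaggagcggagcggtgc
CDC25C: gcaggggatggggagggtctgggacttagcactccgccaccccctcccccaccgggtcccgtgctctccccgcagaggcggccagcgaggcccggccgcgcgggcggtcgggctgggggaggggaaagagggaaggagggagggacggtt
CKS2: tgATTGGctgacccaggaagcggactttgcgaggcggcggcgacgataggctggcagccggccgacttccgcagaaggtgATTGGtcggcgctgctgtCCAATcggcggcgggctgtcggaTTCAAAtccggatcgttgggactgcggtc
CKS1B: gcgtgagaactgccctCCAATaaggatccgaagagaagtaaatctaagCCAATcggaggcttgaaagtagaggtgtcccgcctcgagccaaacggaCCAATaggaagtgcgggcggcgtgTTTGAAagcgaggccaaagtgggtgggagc
CDC25B: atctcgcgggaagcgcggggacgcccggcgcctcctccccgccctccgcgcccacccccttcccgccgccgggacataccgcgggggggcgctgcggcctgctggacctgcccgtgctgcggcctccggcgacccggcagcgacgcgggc

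The deposited values are counts per gene divided by 1 size factor per library, called normalized counts below, and whole reads could be recovered from them. The siBRD8 libraries held 34427104 to 37896467 reads assigned to genes and the siNC libraries 33640814 to 37081766. BRD8 itself had 1312, 1084 and 1156 normalized counts in the siBRD8 libraries, against 2751, 2928 and 3067 in the siNC libraries, so the labels were borne out in every library (log2 fold change -1.30, SE 0.0904, limma adjusted p = 1.13e-04). All 7 epithelial markers checked (EPCAM, CDH1, KRT8, KRT18, KRT19, ERBB2 and CLDN4) were expressed, with a summed level of 621697 to 687098 normalized counts in siBRD8 cells and 478615 to 587733 in siNC cells. Of the markers of other cell types, the fibroblast gene COL1A2 and the B cell gene MS4A1 were at 0 in every library. The 5 fibroblast markers summed to 211 to 227 in siBRD8 cells and 212 to 223 in siNC cells, nearly all of it COL1A1 (153 to 169 in siBRD8 cells and 182 to 198 in siNC cells) and LUM (43.6 to 65.5 in siBRD8 cells and 23.8 to 31.5 in siNC cells). The 3 endothelial markers summed to 10.4 to 13.3 in siBRD8 cells and 3.24 to 6.63 in siNC cells. Of 5 leukocyte markers summing to 16750.2 to 17265 in siBRD8 cells and 16651 to 18139 in siNC cells nearly all was LYZ, which airway epithelium also secretes. The part of these markers in the results was not tested. The shared extraction text speaks of HBE cells at confluence, whereas every title names Calu3. siNC library 2 stood apart from the other 5 libraries on the second principal component, which held 20.6% of the variance.

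Mitotic RNAs were lower nearly throughout after BRD8 siRNA. Of the 38 genes 35 fell and none rose, in a fit that called 8.93% of all 15354 genes tested lower, 10.1% higher and 19.0% in either direction (limma on log2 of the normalized count plus 1, Benjamini-Hochberg adjusted p under 0.05 over all genes). Another 2 genes, CKS2 and CDC25B, had lower means without passing, and CKS1B had a higher mean without passing. All 38 passed the filter of a mean of at least 10 normalized counts. The median log2 fold change was -0.69 over the 38, against -0.01 over all genes tested. In the same 35 genes every siBRD8 library lay below every siNC library, a pattern found in 17.9% of all genes tested, with the opposite pattern in 18.9%. With edgeR's quasi-likelihood test on the recovered reads the count was again 35, against 8.66% of all genes. The genes that fell were left at 50.3% (CIT) to 77.3% (STIL) of the siNC mean, with a median of 61.4%, and none reached 2-fold. Leaving out 5 of the 6 libraries in turn lowered the count. Without siBRD8 library 1, 2 or 3 it was 31, 30 and 33 of the 38, against 5.46%, 4.40% and 4.53% of all genes. Without siNC library 1 it was 31, against 5.24% of all genes, and without siNC library 3 it was 27, against 3.44%. Without siNC library 2 it stayed at 35, against 18.1% of all genes, and CKS1B was called higher, against 15.9% of all genes.

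The whole set took 0.279% to 0.300% of the reads in the siBRD8 libraries and 0.425% to 0.531% in the siNC libraries. TOP2A alone made up 28.3% to 29.8% of these reads in siBRD8 cells and 32.6% to 35.6% in siNC cells. Over the 38 genes, the median log2 level relative to the siNC mean was -0.67, -0.70 and -0.73 in siBRD8 libraries 1, 2 and 3, and -0.06, -0.07 and 0.13 in siNC libraries 1, 2 and 3. The siBRD8 libraries were thus close to each other, while siNC library 3 was the highest control for 25 of the 38 genes. The coefficient of variation between replicates had a median of 5.70% in siBRD8 cells and 10.1% in siNC cells.

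**Figure D1:**
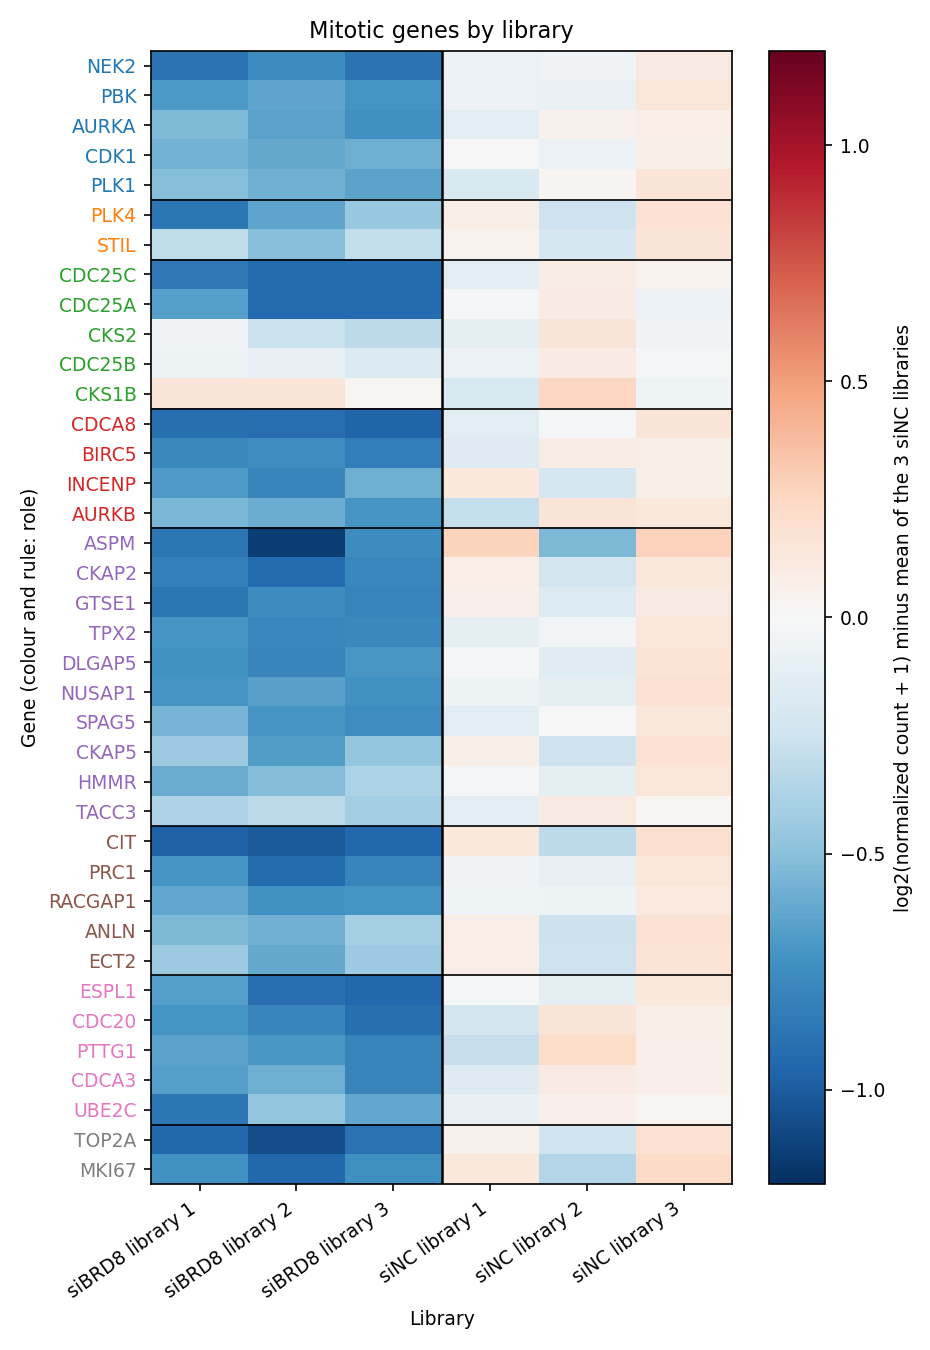
Level of each of the 38 mitotic genes (rows, grouped and coloured by role) in each library (columns, siBRD8 left of siNC), as log2(normalized count + 1) minus the mean of the 3 siNC libraries, where blue is lower. The siBRD8 columns are blue in all rows but those of CKS2, CDC25B and CKS1B, which are pale or light red, and siNC library 2 is the bluest control for long transcripts such as ASPM and MKI67.

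The 5 genes grouped here as mitotic kinases, CDK1, PLK1, AURKA, NEK2 and PBK, all fell. NEK2, a kinase of centrosome separation, fell the furthest of the 5 kinases and had 868, 948 and 867 normalized counts in the siBRD8 libraries, against 1529, 1562 and 1727 in the siNC libraries (log2 fold change -0.84, SE 0.0826, limma adjusted p = 4.72e-04). PBK, a kinase active in mitotic cells, had 1078, 1121 and 1057 normalized counts in the siBRD8 libraries, against 1658, 1649.7 and 1926 in the siNC libraries (log2 fold change -0.68, SE 0.0851, limma adjusted p = 0.00129). The groups were apart for both genes by more than the range within either group. AURKA, which acts at the spindle poles, had 1842, 1705 and 1603 normalized counts in the siBRD8 libraries, against 2442, 2756 and 2815 in the siNC libraries (log2 fold change -0.64, SE 0.0869, limma adjusted p = 0.00186). PLK1, which acts at centrosomes, kinetochores and the midzone, had 1409, 1353 and 1292 normalized counts in the siBRD8 libraries, against 1769.5, 2061 and 2235 in the siNC libraries (log2 fold change -0.57, SE 0.0968, limma adjusted p = 0.00480). Its siBRD8 libraries were all below the lowest control, siNC library 1. CDK1, the kinase that drives entry itself, averaged 3999 ± 62.1 normalized counts in siBRD8 cells and 6019.8 ± 301 in siNC cells (SD, n = 3 each; log2 fold change -0.59). PLK1 exons share 42 bases with ERN2 and 156 with the antisense gene AC008870.3, both on the other strand, and AURKA has a processed copy elsewhere in the genome that could share reads.

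Both centriole duplication genes fell, PLK4 with the weaker precision and STIL by the least of all genes that fell. PLK4, the kinase that starts a new centriole, had 349, 409.7 and 463 normalized counts in the siBRD8 libraries, against 670.1, 537 and 716 in the siNC libraries (log2 fold change -0.65, SE 0.140, limma adjusted p = 0.0133). Its siBRD8 libraries varied the most of the 38 genes relative to their mean, and siNC library 2 was its lowest control. STIL, the scaffold that PLK4 phosphorylates, had 1495, 1294 and 1502 normalized counts in the siBRD8 libraries, against 1900.3, 1603 and 2049.8 in the siNC libraries (log2 fold change -0.37, SE 0.108, limma adjusted p = 0.0445). Its groups did not overlap, but siBRD8 libraries 1 and 3 were close to siNC library 2. The call for STIL ended without siBRD8 library 1 (limma adjusted p = 0.0814), 2 (0.156) or 3 (0.0894) and without siNC library 1 (0.115) or 3 (0.179), and that for PLK4 ended without siNC library 3 (0.0635), where neither gene of the pair passed.

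The regulators of CDK1 split, with 2 of 5 lower and 3 not called. CDC25C, the phosphatase that activates CDK1 at mitotic entry, had 438, 418 and 418 normalized counts in the siBRD8 libraries, against 722, 843 and 816 in the siNC libraries (log2 fold change -0.90, SE 0.0899, limma adjusted p = 5.17e-04). CDC25A, which acts on CDKs from S phase on, had 339, 281 and 280.3 normalized counts in the siBRD8 libraries, against 526, 575 and 509 in the siNC libraries (log2 fold change -0.84, SE 0.108, limma adjusted p = 0.00148). For both, each siBRD8 library was far under each siNC library. CDC25B, which starts CDK1 activation at the centrosome, had 3573, 3472 and 3295 normalized counts in the siBRD8 libraries, against 3537, 3987 and 3666 in the siNC libraries. Its groups overlapped (log2 fold change -0.11, 95% interval -0.28 to 0.06, limma adjusted p = 0.335). With the trend of transcript length and GC content removed from each library, CDC25B was called lower, at a log2 fold change of -0.17 (limma adjusted p = 0.0198). CDC25C exons overlap those of FAM53C on the other strand by 276 of 2570 bases, and strand is not marked by the kit used. FAM53C had 2362, 2177 and 2177 normalized counts in siBRD8 cells and 2419, 2299.6 and 2549.8 in siNC cells.

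The small CKS proteins, which dock CDK complexes to phosphorylated substrates, did not pass. CKS2 had 1871, 1602 and 1549 normalized counts in the siBRD8 libraries, against 1786, 2153 and 1874 in the siNC libraries (log2 fold change -0.21, 95% interval -0.44 to 0.02, limma adjusted p = 0.189). CKS1B, which also serves the SKP2 ubiquitin ligase that degrades p27, had 2623, 2615 and 2380.0 normalized counts in the siBRD8 libraries, against 2056, 2794 and 2262 in the siNC libraries (log2 fold change 0.11, 95% interval -0.15 to 0.37, limma adjusted p = 0.545). For CKS2 only siBRD8 library 1 reached into the control range, and for CKS1B the highest value of all 6 was siNC library 2. Without siNC library 2, CKS1B was called higher (log2 fold change 0.23, limma adjusted p = 0.0371), the only rise in the set under any library left out. The intervals exclude a fall of the set's median size for CDC25B, CKS2 and CKS1B. CKS1B has processed copies in the genome, so the assignment of its reads is uncertain. As printed above, the promoters of CKS2 and CKS1B hold the CHR letters and 3 CCAAT matches each in the 150 bases shown, and that of CDC25B holds none. Of the 29 genes that fell and had a promoter, 21 held the CHR letters and 23 held CCAAT in the full window.

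**Figure D2:**
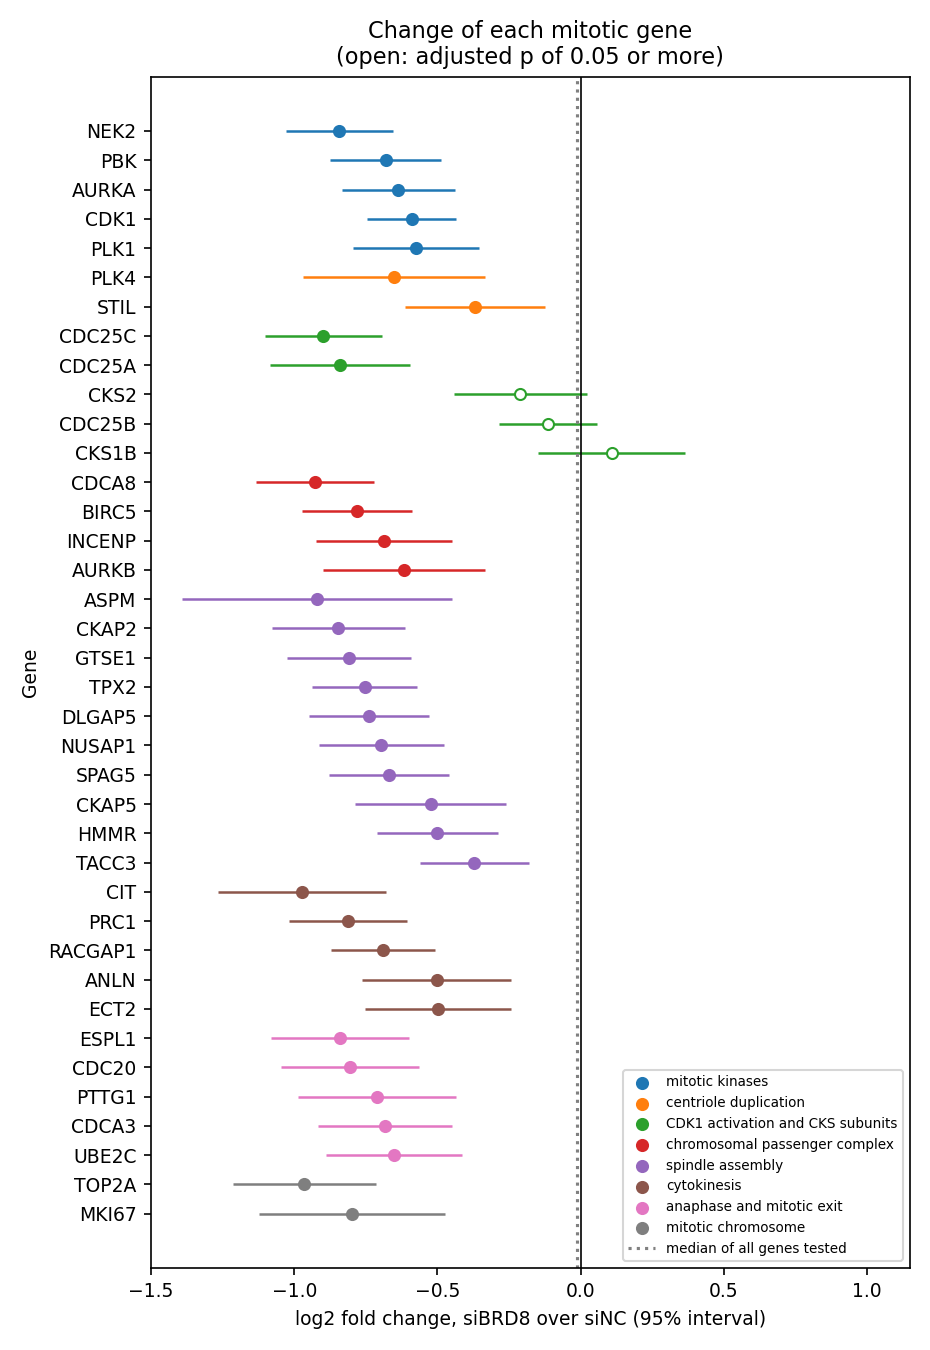
Log2 fold change of each of the 38 genes, siBRD8 over siNC, with its 95% interval from limma (horizontal bars), by role; filled points passed an adjusted p of 0.05 and open points did not, and the dotted line is the median of all genes tested. The 35 filled points lie between -0.97 and -0.37, and CKS2, CDC25B and CKS1B are the open ones at -0.21, -0.11 and 0.11.

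All 4 subunits of the chromosomal passenger complex, which corrects chromosome attachment and steers cytokinesis, fell. CDCA8 (borealin), a targeting subunit, had 847, 844 and 815 normalized counts in the siBRD8 libraries, against 1443, 1576 and 1767 in the siNC libraries (log2 fold change -0.93, SE 0.0901, limma adjusted p = 4.63e-04). Its siBRD8 libraries were nearly equal, at a mean of 835 ± 17.8 (SD, n = 3), and its adjusted p was the smallest of the 38. BIRC5 (survivin), which binds phosphorylated histone H3 at centromeres, had 1379.6, 1404 and 1324 normalized counts in the siBRD8 libraries, against 2118, 2494 and 2462 in the siNC libraries (log2 fold change -0.78, SE 0.0847, limma adjusted p = 7.49e-04). AURKB, the kinase of the complex, had 532, 516 and 478 normalized counts in the siBRD8 libraries, against 641, 867 and 853 in the siNC libraries (log2 fold change -0.62, SE 0.125, limma adjusted p = 0.0105). Its lowest control, siNC library 1, was closer to the siBRD8 libraries than the other controls were, and its call ended without siNC library 3 (adjusted p = 0.0542). INCENP, the scaffold, averaged 970.4 ± 71.6 normalized counts in siBRD8 cells and 1566 ± 183 in siNC cells (SD, n = 3 each; log2 fold change -0.69).

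All 10 spindle genes fell, with log2 fold changes of -0.92 to -0.37. ASPM, a spindle pole protein known from microcephaly, had 1789, 1494 and 1949 normalized counts in the siBRD8 libraries, against 3961, 2252 and 3963 in the siNC libraries (log2 fold change -0.92, SE 0.208, limma adjusted p = 0.0165). siNC library 2 was far below the other controls for ASPM, and its standard error was the largest of the set. CKAP2, a microtubule stabilizer of the spindle, had 1655, 1540.0 and 1702 normalized counts in the siBRD8 libraries, against 3095, 2523 and 3227 in the siNC libraries (log2 fold change -0.85, SE 0.102, limma adjusted p = 0.00115). Its groups were clearly apart. TPX2, which activates AURKA on microtubules, averaged 4703 ± 133 normalized counts in siBRD8 cells and 7949.8 ± 716 in siNC cells (SD, n = 3 each; log2 fold change -0.75). GTSE1, which restrains p53 in G2 and steadies spindle microtubules, fell by 0.81 on the log2 scale, DLGAP5 (HURP), a kinetochore fibre protein, by 0.74, and the microtubule bundler NUSAP1 by 0.70. NUSAP1 shares 1787 of its 2454 exonic bases with AC087721.2, annotated in GENCODE v29 on the same strand and with no value used here. The annotation behind the deposited counts was not given, so whether this overlap affected the NUSAP1 reads is not known. SPAG5 (astrin) fell by 0.67 and HMMR, which links the poles to microtubules, by 0.50. The microtubule polymerase CKAP5 (chTOG) fell by 0.52 and its partner TACC3 by 0.37 on the log2 scale, the smallest fall of the 10.

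Calls for 3 of these spindle genes ended when any of several libraries was left out. The fits concerned called 3.44% to 5.46% of all genes lower, against 8.93% with every library in. That for ASPM ended without siBRD8 library 1 (limma adjusted p = 0.0515) or 2 (0.0589) and without siNC library 1 (0.0529) or 3 (0.0700). CKAP5 lost it without siBRD8 library 2 (0.0625) or siNC library 3 (0.0705), and TACC3 without siBRD8 library 1 (0.0521) or 3 (0.0747) or siNC library 3 (0.0809). The log2 fold changes kept their sign, and lay between -0.78 and -1.19 for ASPM.

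All 5 cytokinesis genes fell, CIT the furthest of the whole set. CIT (citron kinase), which organizes the midbody, had 693, 675 and 709 normalized counts in the siBRD8 libraries, against 1482, 1092 and 1552 in the siNC libraries (log2 fold change -0.97, SE 0.129, limma adjusted p = 0.00166). The siBRD8 libraries were nearly equal, and siNC library 2 was the lowest control. PRC1, which bundles the antiparallel microtubules of the central spindle, had 2017, 1740.1 and 1892 normalized counts in the siBRD8 libraries, against 3199.7, 3089.9 and 3640.3 in the siNC libraries (log2 fold change -0.81, SE 0.0903, limma adjusted p = 8.09e-04). PRC1 shares 2716 of its 4168 exonic bases with AC068831.7, annotated in GENCODE v29 on the same strand and with no value used here. Whether this overlap affected the PRC1 reads is likewise not known. RACGAP1, the GTPase-activating subunit of centralspindlin, averaged 1222 ± 46.2 normalized counts in siBRD8 cells and 1975 ± 139.7 in siNC cells (SD, n = 3 each; log2 fold change -0.69). ECT2, the exchange factor that activates RhoA at the furrow, and ANLN (anillin), the scaffold of the contractile ring, were among the most abundant members and fell by the same small step, 0.50 on the log2 scale each. ANLN lost its call without siBRD8 library 1 (limma adjusted p = 0.0617) or 2 (0.0675) or siNC library 1 (0.0551) or 3 (0.0779), and ECT2 without siBRD8 library 2 (0.0666) or siNC library 1 (0.0521) or 3 (0.0746), so that 3 of the 5 passed without siBRD8 library 2, siNC library 1 or siNC library 3.

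All 5 genes of anaphase and mitotic exit fell, and they did so with each library left out in turn. ESPL1 (separase), the protease that cuts cohesin, had 524, 440.0 and 432 normalized counts in the siBRD8 libraries, against 817, 772 and 908 in the siNC libraries (log2 fold change -0.84, SE 0.106, limma adjusted p = 0.00139). CDC20, the activator of the APC/C in metaphase, had 1802, 1716 and 1586 normalized counts in the siBRD8 libraries, against 2547, 3306 and 3113 in the siNC libraries (log2 fold change -0.81, SE 0.106, limma adjusted p = 0.00163). In both genes the highest siBRD8 library was well under the lowest control. PTTG1 (securin), the inhibitor that holds separase until anaphase, fell by 0.71 on the log2 scale. Separase fell by 0.84, and the difference between these genes was not tested. UBE2C, the ubiquitin-conjugating enzyme of the APC/C, fell by 0.65 and CDCA3, an F-box-like trigger of mitotic entry, by 0.68 on the log2 scale. PTTG1 has near-identical intronless relatives and its reads may be shared with them.

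TOP2A, the topoisomerase that untangles sister chromatids, and MKI67 (Ki-67), which coats mitotic chromosomes and marks dividing cells, fell by 0.97 and 0.80 on the log2 scale. TOP2A had 30864, 28412 and 31881 normalized counts in the siBRD8 libraries, against 61603, 50332 and 67137 in the siNC libraries (log2 fold change -0.97, SE 0.110, limma adjusted p = 9.09e-04). MKI67 had 2863, 2468 and 2842 normalized counts in the siBRD8 libraries, against 5155, 3711 and 5528 in the siNC libraries (log2 fold change -0.80, SE 0.143, limma adjusted p = 0.00620). For both genes siNC library 2 was the lowest control and still lay above every siBRD8 library. Per kilobase of exon, TOP2A was the most abundant of the 38 RNAs, at 5277 in siBRD8 cells and 10366 in siNC cells normalized counts, followed in siNC cells by CKS2, at 2731 in siBRD8 cells and 3161 in siNC cells, ECT2, at 2101 in siBRD8 cells and 2987 in siNC cells, and CDK1, at 1963 in siBRD8 cells and 2955 in siNC cells. The least abundant per kilobase in siBRD8 cells was ESPL1, at 70.0 in siBRD8 cells and 125 in siNC cells, next to CDC25A, at 79.3 in siBRD8 cells and 142 in siNC cells.

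Related members were also compared with each other inside each library, where the scaling of the library cancels. In 3 of 5 pairs the groups overlapped. The mean log2 ratio of AURKA to AURKB was 1.75 ± 0.0339 in siBRD8 cells and 1.77 ± 0.138 in siNC cells, that of PLK1 to PLK4 1.74 ± 0.265 and 1.66 ± 0.271, and that of CDC25A to CDC25C -0.50 ± 0.119 and -0.56 ± 0.112 (SD, n = 3 each). Their differences were -0.02, 0.08 and 0.06 (exact two-sided permutation p = 1, 0.7 and 0.7). CDC25B against CDC25C stood apart, with a log2 ratio of 3.02 ± 0.0375 in siBRD8 cells and 2.23 ± 0.0626 in siNC cells (SD, n = 3 each), a difference of 0.79. The ratio of CKS1B to CKS2 was 0.60 ± 0.111 in siBRD8 cells and 0.28 ± 0.0871 in siNC cells, a difference of 0.32. In both pairs every siBRD8 library exceeded every siNC library (exact two-sided permutation p = 0.1, the smallest that 3 libraries against 3 allow, and 0.25 adjusted over the 5 pairs). None of the 5 can pass a threshold of 0.05 in this design.

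**Figure D3:**
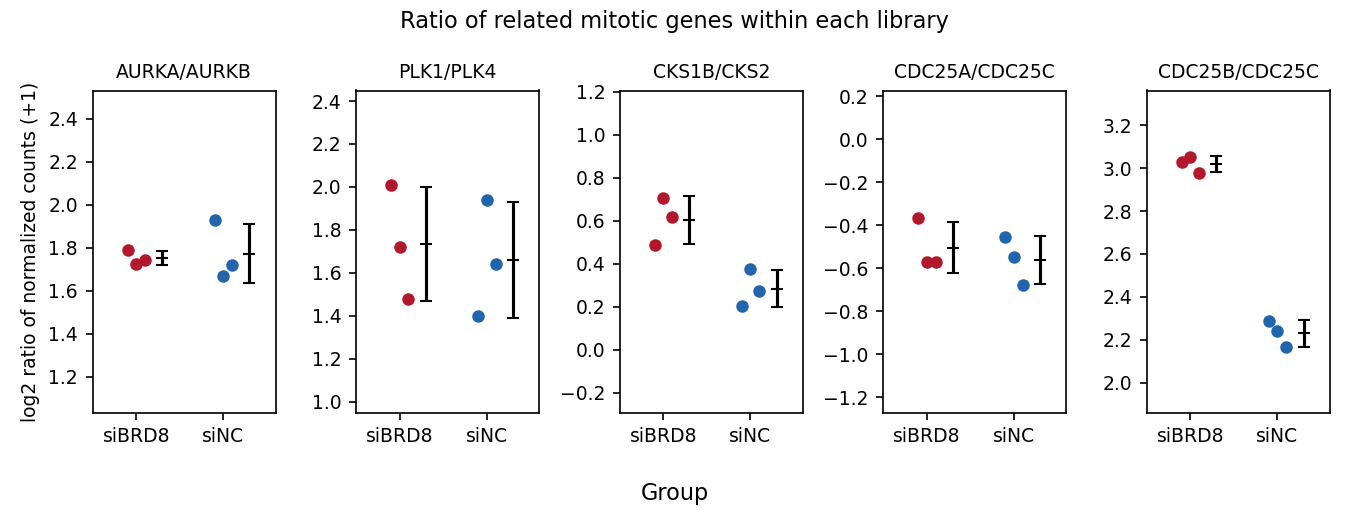
Log2 ratio of the normalized counts (+1) of 5 pairs of related genes within each library (points), with the mean ± SD beside them, siBRD8 left of siNC; every panel spans the same range of 1.5 log2 units. The groups part for CDC25B/CDC25C, at 2.98 to 3.05 against 2.17 to 2.29, and for CKS1B/CKS2, and overlap for the other 3 pairs.

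The length of a transcript moved with the levels in siNC library 2. Across the 38 genes, which share that library and are not independent, the log2 level in siNC library 2 minus the mean of siNC libraries 1 and 3 had a Spearman rho of -0.74 with exon length and a Pearson r of -0.78 with its log2, and over all 14830 tested genes with a length the rho was -0.54. ASPM, with 10887 bases of exon, was lower in that library by 0.81 and CKS1B, with 1483 bases, higher by 0.37. siNC library 2 was the lowest control for 20 genes, with a median exon length of 4205.5 bases, and the highest for 12, with a median of 2199.5 bases. The log2 fold change of the 38 genes had a rho of -0.25 with length and a Pearson r of -0.37 with its log2. Over all tested genes with a length these were -0.16 and -0.13. Without siNC library 2, 35 of the 38 fell at a median of -0.72, with 18.1% of all genes called lower. With the length and GC trend removed from each library, 36 fell at a median of -0.70, with 16.9% of all genes called lower.

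**Figure D4:**
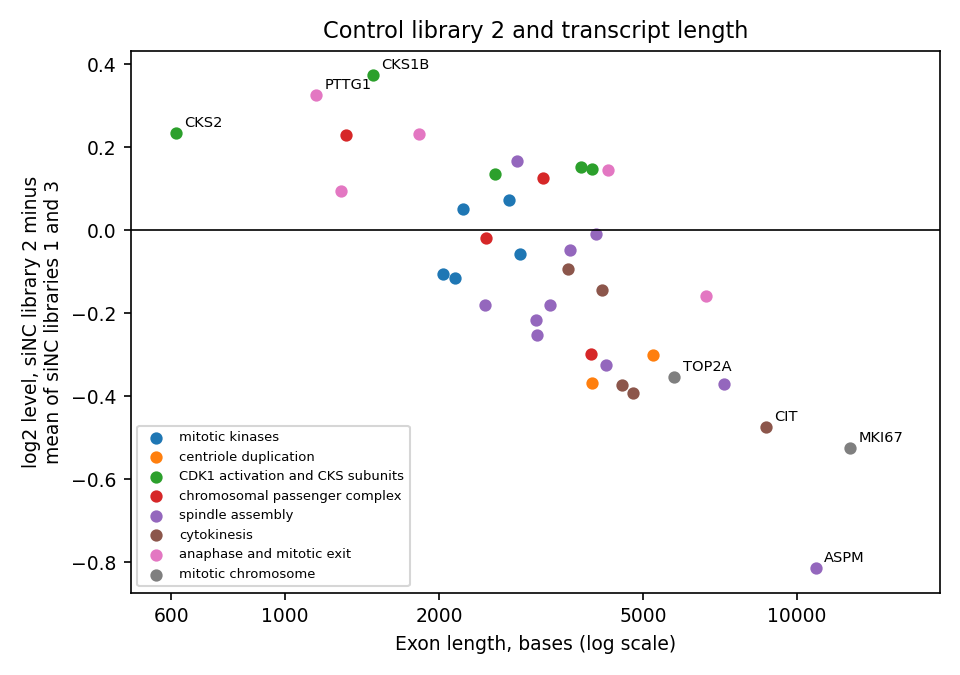
Exon length of each of the 38 genes (log axis, bases, GENCODE v29) against its log2 level in siNC library 2 minus the mean of siNC libraries 1 and 3, coloured by role. Points run from above 0 for short transcripts such as CKS1B and PTTG1 down to -0.81 for ASPM, at a Spearman rho of -0.74 (n = 38 genes of the same libraries).

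Other lists of the division machinery showed falls in part. Their counts stand against the same 8.93% of all genes called lower and 10.1% called higher. Of 13 checkpoint and kinetochore genes 12 fell, with a median log2 fold change of -0.72. NDC80, a microtubule-binding subunit of the outer kinetochore, averaged 822 ± 11.6 normalized counts in siBRD8 cells and 1313 ± 31.5 in siNC cells, and the centromeric histone CENPA 353 ± 9.90 normalized counts in siBRD8 cells and 652 ± 63.4 in siNC cells (SD, n = 3 each). MAD1L1, chosen after its values were seen as the exception, had a log2 fold change of 0.15 (limma adjusted p = 0.384). Of 10 cyclins and cell-cycle factors 6 fell, at a median of -0.48. CCNB2, a cyclin partner of CDK1, averaged 1545 ± 70.7 normalized counts in siBRD8 cells and 2873 ± 203 in siNC cells (log2 fold change -0.89; SD, n = 3 each). Of 16 genes of the G1/S transition and replication 8 fell and none rose, at a median of -0.29, with the smallest adjusted p for the helicase subunit MCM6, lower by 0.39 on the log2 scale.

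In the other 4 lists most genes did not pass the test, and over all genes 8.93% were called lower. Of 17 APC/C genes 4 fell, at a median of -0.11, with ANAPC1, a scaffold subunit, lower by 0.42 on the log2 scale. Of 18 augmin and gamma-tubulin genes 5 fell, at a median of -0.15, with NEDD1, which recruits the gamma-tubulin ring to spindles, lower by 0.44. Of 13 kinases and phosphatases of mitotic entry and exit 3 fell, at a median of -0.16, led by BORA, which helps AURKA activate PLK1 and fell by 0.55. Of 13 genes of the contractile ring and abscission 4 fell, at a median of -0.06. In that list CEP55, a midbody organizer, averaged 1893 ± 21.4 normalized counts in siBRD8 cells and 2969 ± 206 in siNC cells, and the centralspindlin kinesin KIF23 1714 ± 45.5 normalized counts in siBRD8 cells and 2857 ± 306 in siNC cells (SD, n = 3 each). No gene of these lists rose. ANAPC1 lost its call without siBRD8 library 1 (limma adjusted p = 0.0557), 2 (0.0805) or 3 (0.0511) or siNC library 1 (0.0629) or 3 (0.0945), and NEDD1 without siBRD8 library 1 (0.0581) or 2 (0.0867) or siNC library 1 (0.0727) or 3 (0.102). The differences between lists were not tested.

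Several of these counts were smaller when a library was left out, in fits that called fewer of all genes lower as well. The all-gene share was 5.46%, 4.40% and 4.53% without siBRD8 libraries 1, 2 and 3. It was 5.24% and 3.44% without siNC libraries 1 and 3, against 8.93% with every library in. The APC/C genes lower numbered 0 without siBRD8 library 1, siBRD8 library 3 or siNC library 3, 1 without siBRD8 library 2 and 2 without siNC library 1, and the augmin and gamma-tubulin genes lower numbered 1, 0 and 2 without siBRD8 libraries 1, 2 and 3 and 1 and 0 without siNC libraries 1 and 3. Of the entry and exit list 1 fell without siNC library 3. The replication genes lower numbered 4 without siBRD8 library 2 or 3 and 3 without siNC library 3. With any 1 library left out, 9 to 12 checkpoint and kinetochore genes and 4 to 8 cyclins and factors were lower. The share of all genes called lower in those fits ran from 3.44% to 18.1%. Without siNC library 2, where 15.9% of all genes were called higher, 1 gene of each of 3 lists was among them: the small APC/C subunit ANAPC11, the augmin subunit HAUS7 and the ESCRT-III subunit CHMP2A, all named after their values were seen.

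**Figure D5:**
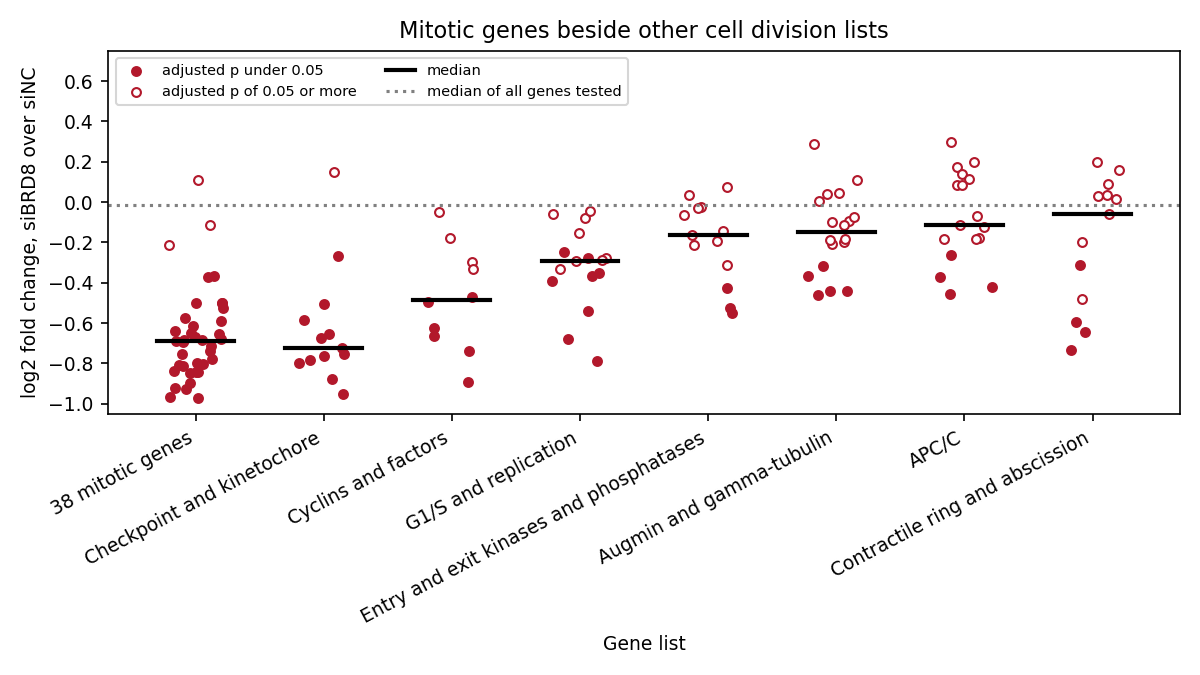
Log2 fold change, siBRD8 over siNC, of the 38 mitotic genes (left) and of 7 other lists of cell division genes; points are genes, filled where the adjusted p was under 0.05, and black bars are list medians. The medians run from -0.72 in the checkpoint and kinetochore list and -0.69 in the 38 genes to -0.06 in the contractile ring and abscission list.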

How the data were processed

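Groups were read from the sample titles. STAR 2.6, Subread's featureCounts 1.6.3, DESeq2 1.22.1 and hg19 appear in the submitters' processing notes, without roles; for annotation, strand setting and filters the sources used here give nothing. The deposited expression values are a normalized signal (counts divided by a size factor per library, by the authors). The authors' deposited comparison also holds a log2 standard error, p-value and adjusted p-value columns, and a test score and a fold change (a score with spreadsheet errors in genes without reads); only its adjusted p and fold change were used, as an alternative. Whole reads were recovered within 0.01 for 100% of values; a floor of 3 reads is 2.84 to 3.24 normalized counts and covers counting error only. Replicates differed by more than sampling noise (chi-square over its degrees of freedom, 6.63 to 51.8).

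Because the values are normalized, limma 3.58.1 (R 4.3.3, variance trend, treatment alone) was run on log2(value + 1) for the 15354 genes whose mean reached 10; fold changes on this scale understate changes of low genes. edgeR 4.0.16 and DESeq2 1.42.0 on the recovered reads were alternatives and edgeR called 1329 genes lower. The pair ratios used exact permutation tests (scipy 1.17.1). Exon lengths (GENCODE v29, union of basic exons) matched 23747 symbols directly and 725 by synonym. Another annotated gene shares exonic bases with 10 of the 38 genes, on the opposite strand for 9. The members and lists were chosen with earlier results of these data known. Named by rule were the 2 genes of each role with the largest falls, those not passing, the pairs, and the leading genes of each other list.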

Additional observations from a re-analysis of the deposited data

How the results depend on the processing

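The fall of 35 of the 38 genes kept its count under pseudocounts of 0.5 and 5, without a filter, at a mean of at least 50, with TMM or quantile scaling, in edgeR, in DESeq2 and by the authors' deposited adjusted p, and in each of these CKS2, CDC25B and CKS1B were the 3 not called. With the length and GC trend removed 36 fell, and over all genes 2508 were lower and 2480 higher, against 1371 and 1549; 1 contractile ring gene, ROCK1, then rose. Leaving out 1 library in turn gave 27 to 35 of the 38 lower and 0 to 1 higher, with medians of -0.73 to -0.64. Over all genes it gave 528 to 2784 lower and 832 to 2445 higher. By role the counts lower ranged over 0 to 2 for centriole duplication and 3 to 5 for cytokinesis. They were 7 to 10 for spindle assembly and 3 to 4 for the chromosomal passenger complex. For the CDK1 regulators 0 to 1 were higher. By list, 9 to 12 checkpoint and kinetochore genes, 4 to 8 cyclins and factors and 3 to 8 replication genes were lower. The entry and exit list had 1 to 4 lower, and the contractile ring list 3 to 5 lower and 0 to 1 higher. Both the APC/C and the augmin and gamma-tubulin lists had 0 to 5 lower and 0 to 1 higher. Of the 38 calls 28 were the same under all 17 alternatives.

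Libraries share only a replicate number: same-numbered siBRD8 and siNC libraries deviated from their group means with correlations of -0.08, 0.34 and 0.15, and not every library correlated best with its own number. With the replicate block 35 of the 38 fell and none rose, 1962 genes fell in all, and 1 APC/C gene, ANAPC11, rose. In the pairs the replicate block gives the differences of the report by construction, with a smallest possible exact p of 0.25. Differences of the pairs with a library left out ran from 0.75 to 0.81 for CDC25B/CDC25C and 0.27 to 0.38 for CKS1B/CKS2. In the remaining pairs the sign changed. The differences ran from -0.07 to 0.06 for AURKA/AURKB, -0.06 to 0.22 for PLK1/PLK4 and -0.01 to 0.11 for CDC25A/CDC25C.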
